A study of Mus musculus with 8 samples.

Results

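Interferon-stimulated genes are the genes that cells switch on when an interferon reaches them, and 35 mouse genes of this kind, picked by symbol from a list, were followed in dorsal skin. Of these, 34 were among the 18770 genes analysed, and Mx2 was not analysed here. Type I interferons bind the receptor IFNAR, whose kinases JAK1 and TYK2 activate the complex ISGF3, which holds STAT2 and IRF9. ISGF3 binds the interferon-stimulated response element (ISRE) in promoters and turns on sensors of viral RNA, enzymes that degrade RNA or block its translation, the ubiquitin-like modifier ISG15 and the factor IRF7, which in turn raises interferon production. In skin the program is known for its activity in macrophages, dendritic cells and keratinocytes, and type I interferon from plasmacytoid dendritic cells is known to appear after skin injury.

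The study asked how alpinetin (AP), a plant flavonoid, acts on hair regrowth, and messenger RNA was sequenced from dermis with hair follicles after the interfollicular epidermis had been taken off. All mice were wild-type C57BL/6J males, 7 to 8 weeks old, whose back hair had been removed to start a new hair cycle. The 4 mice of the AP group received alpinetin at 3 mg/ml in 65% ethanol, 20 µl once a day from 24 h after depilation, and the 4 mice of the vehicle group (VC) received 65% ethanol alone. Skin was taken at day 4 after depilation, so both groups share the depilation and the ethanol.

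Each value is a normalized count, a gene's read count divided by 1 size factor per library. Within each group the libraries carry numbers, as in VC.1 or AP.3, values are listed in the order of these numbers, and no number was tied to a single animal. Reads on genes numbered 6454563 to 7264151 in the VC libraries and 8507783 to 11190113 in the AP libraries. Transcripts of the mitochondrial genome took 54.3, 44.9, 42.1 and 52.3% of the VC reads, and 11.1, 7.85, 5.32 and 10.3% of the AP reads, without overlap. This left 3080758 to 3762217 other reads per VC library against 7561598 to 10594787 per AP library. The part of this shift in any result below was not tested.

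The interferon-stimulated genes were most abundant in 1 vehicle library. Their mean level, on the log2(normalized count + 1) scale, was 6.28, 6.81, 6.51 and 7.75 in the VC libraries and 6.50, 6.62, 6.07 and 6.06 in the AP libraries. Library VC.4 stood above all others, AP.3 and AP.4 were the lowest, and VC.1 and VC.3 lay among the AP values. Summed normalized counts of the 34 genes were 4260.2, 5039, 4339 and 10028 in the VC libraries and 4300.2, 4360.4, 3197 and 3055 in the AP libraries. VC.4 held the highest value of 27 of the 34 genes and lay above the VC mean for all 34, whereas AP.3 was lowest for 11 genes and AP.4 for 10. In bulk tissue, fewer cells of a type and less RNA per cell cannot be told apart.

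**Figure D1:**
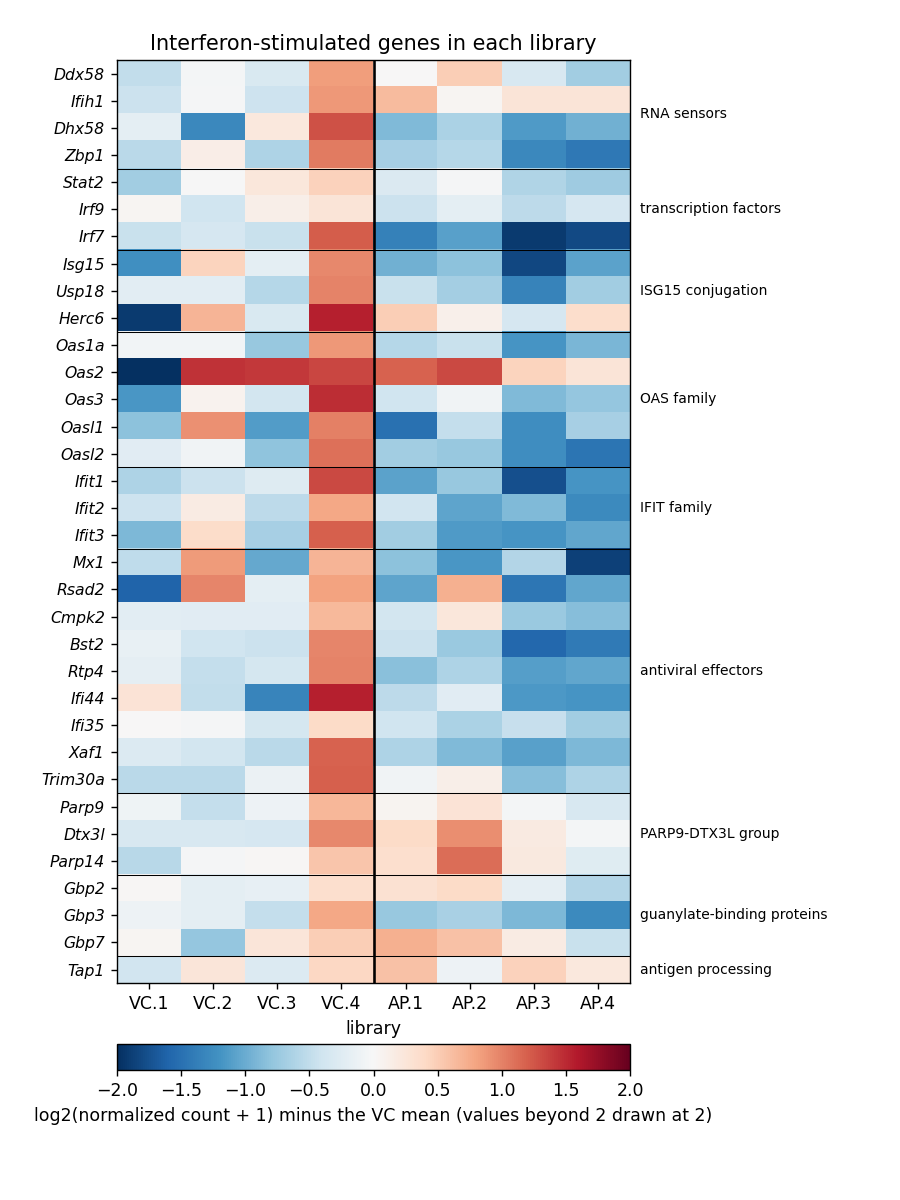
Level of each of the 34 genes in the 8 libraries, as log2(normalized count + 1) minus the mean of the 4 VC libraries, with genes grouped by role; differences beyond 2 are drawn at 2. The VC.4 column is above the VC mean in all 34 genes, and VC.1, VC.3, AP.3 and AP.4 are below it in 29, 28, 28 and 30 of them; with total-count scaling, not drawn, the AP columns move up relative to VC.

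All 34 genes passed the minimum of 3 normalized counts in 4 of the 8 libraries, and AP was compared with VC by limma on the log2(normalized count + 1) scale over 15964 genes. At an adjusted p under 0.05, 1 interferon-stimulated gene was lower in AP, Irf7, against 4.0% of all genes tested, and 0 were higher, against 6.33%. At an unadjusted p under 0.05, 13 were lower, against 13.3% of all genes, and 0 were higher, against 2720 of the 15964 genes tested. By the thresholds of the study, a change of more than 1.5 times with p below 0.01 before adjustment, 3 were lower (Irf7, Gbp3 and Bst2), against 5.32%, and 0 were higher, against 8.26%. The study applied these thresholds to DESeq2, and with DESeq2 on the recovered reads 11 of the 34 were lower, against 1173 of all 15964, and 8 with edgeR, against 928. The 4 AP libraries lay below all 4 VC libraries for 7 genes (Irf7, Bst2, Ifit1, Ifi35, Rtp4, Xaf1 and Gbp3), against 8.91% of all genes, and above them for 0, against 10.3%. The log2 fold change was below 0 for 27 of the 34 genes, against 46.5% of all genes. Its median was -0.74 (quartiles -0.95 and -0.04), beside 0.06 (quartiles -0.36 and 0.54) over all genes tested.

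Without library VC.4 the median of the 34 genes was -0.43, beside 0.07 for all genes, and 23 genes remained below 0. Of the 34, 1 was then called lower, against 467 of all 15754 genes, and 1 met the study's thresholds, against 792. At an unadjusted p under 0.05, 7 were then lower and 2 higher (Ifih1 and Dtx3l), against 2034 lower and 2634 higher of all 15754 genes tested. The count of genes called lower was 2 without VC.1, 3 without VC.3, 2 without AP.1 and 0 without AP.3 or AP.4, while over all genes it went from 639 to 255, 522, 812, 96 and 147 in these fits. Those that met the study's thresholds numbered 5 without VC.3 and 1 without AP.3 or AP.4, against 797, 506 and 620 of all genes, and 850 with all libraries. Without AP.3, 8 genes were lower at an unadjusted p under 0.05, against 1508 of all 15712 genes, where 2120 of 15964 were lower with all libraries. Genes with all AP libraries below all VC libraries numbered 11 without VC.1 and 12 without VC.3, and over all genes this count went from 1423 to 1752 and 1922, as fewer libraries separate more easily. On the reads recovered from the normalized counts, DESeq2 called 12 genes lower (Irf7, Gbp3, Ifit1, Isg15, Oasl2, Ifit3, Bst2, Rtp4, Zbp1, Ifit2, Ifi35 and Xaf1) and 0 higher, against 1362 lower and 1677 higher of all 15964 genes. The quasi-likelihood test of edgeR called 2 lower (Irf7 and Gbp3) and 0 higher, against 712 and 1003. The direction depended on the scaling: with total counts, which include the mitochondrial reads, the median of the 34 genes was 0.11 and 7 were called higher and 0 lower, against 8657 and 70 of all 15964 genes, but the median of all genes moved to 0.90, and relative to it the 34 genes stood at -0.79, as they did at -0.79 with the deposited size factors. Over the 23 alternatives that difference ranged from -0.88 to -0.49, and 24 to 29 of the 34 genes lay below the median of all genes.

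**Figure D2:**
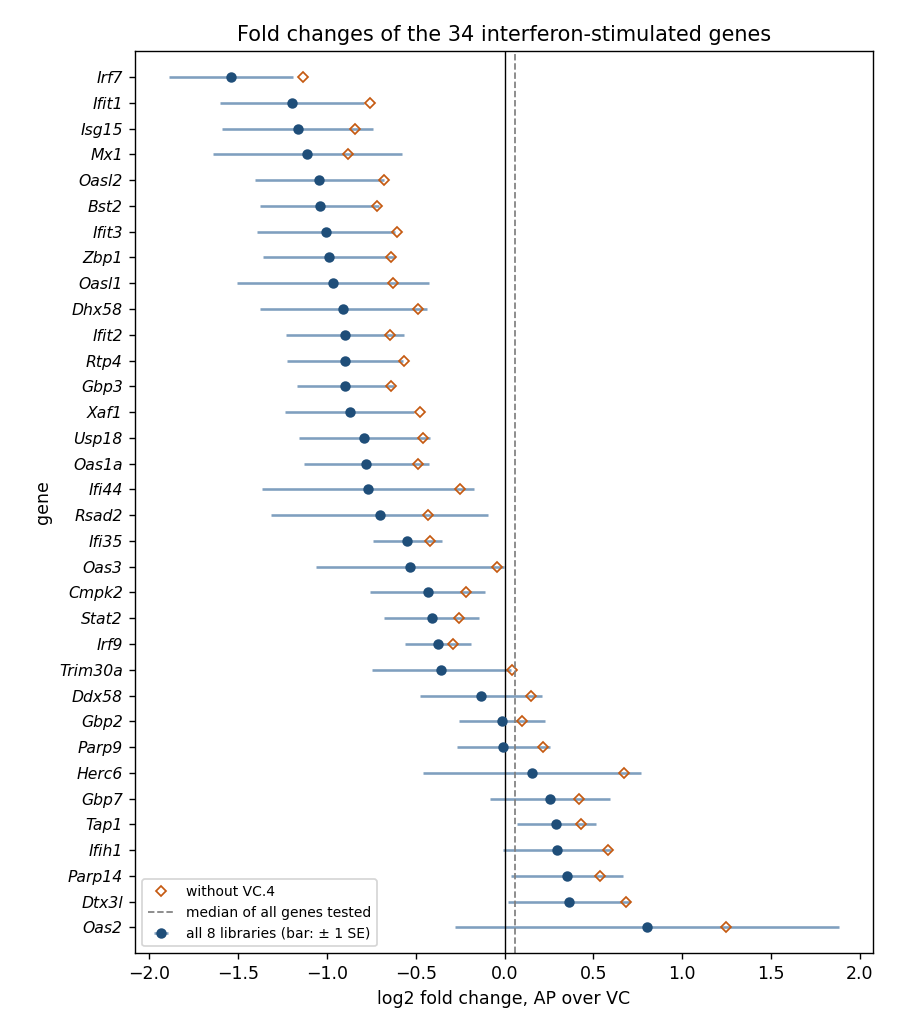
Log2 fold change of each of the 34 genes, AP over VC, from limma with all 8 libraries (filled circles, bars of 1 SE) and without VC.4 (open diamonds); the dashed line is the median of all genes tested, 0.06. Irf7 has the lowest value, -1.54, and without VC.4 it stands at -1.13; with total-count scaling, not drawn, all genes move up and the median of the 34 turns to 0.11.

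The transcription factors of the pathway differed among themselves. Irf7, the factor that feeds forward to more interferon, had normalized counts of 446, 479, 447 and 1408 in the VC libraries and 236, 284, 160.4 and 173 in the AP libraries. Every AP library was below every VC library, and VC.4 was far above the other vehicle libraries. The means were 695 ± 476 in VC and 213 ± 57.3 in AP (SD, n = 4 each). Irf7 fell by 1.54 on the log2 scale (SE 0.35, limma adjusted p = 0.0240; exact permutation p = 0.0286, the smallest that 4 against 4 libraries allow). Without VC.4 the log2 fold change was -1.13 (adjusted p = 0.0218), and the adjusted p was 0.0785 when AP.3 was left out and 0.0689 when AP.4 was, within a range of 5.36e-04 to 0.111 over the 23 alternatives. With total-count scaling Irf7 stood at -0.67 and was not called (adjusted p = 0.111). Irf7 overlaps Phrf1 on the opposite strand but shares 0 of its 50-base words with other genes. Stat2 and Irf9, the constant partners of ISGF3, were closer between the groups. Stat2 ranged from 122 to 272 in VC and from 119 to 193 in AP, and Irf9 from 202 to 319 in VC and from 185 to 232 in AP, with overlap in each. Their log2 fold changes were -0.41 and -0.37 (limma adjusted p = 0.323 and 0.195), and with total-count scaling they were 0.46 and 0.49; Stat2 was -0.26 without VC.4 and -0.64 without VC.1.

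Among the sensors, RIG-I (Ddx58) and MDA5 (Ifih1) detect viral RNA in the cytoplasm, LGP2 (Dhx58) modulates both, and ZBP1 binds left-handed nucleic acid and can start cell death. Per kb of transcript, Zbp1 was the most abundant of them over all libraries, but in AP alone Ddx58 was above it (25.9 against 22.3). Zbp1 had 98.2, 157, 92.9 and 296 normalized counts in VC and 89.9, 96.0, 58.3 and 52.9 in AP. VC.4 and VC.2 were high, AP.3 and AP.4 were low, and VC.3 lay between AP libraries. For Zbp1 the log2 fold change was -0.99 (SE 0.37, limma adjusted p = 0.104), -0.64 without VC.4 and -0.13 with total-count scaling. Dhx58 was 152 in VC.4 but 25.1 in VC.2, lower than in any AP library (27.9 to 39.9), with a log2 fold change of -0.91 that was -0.48 without VC.4 and -1.33 without VC.2. Ifih1 and Ddx58 lay closer to 0: Ifih1 stood at 0.30, and at 0.15 without VC.1, 0.58 without VC.4, 0.06 with the length trend removed and 1.16 with total-count scaling, where it was called higher (adjusted p = 0.00979, in a range of 0.00979 to 0.930). Ddx58 stood at -0.13, which turned to 0.15 without VC.4, to 0.06 without AP.4 and to 0.73 with total-count scaling.

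ISG15 is joined to other proteins like ubiquitin, HERC6 is the mouse ligase for it and USP18 removes it and also dampens the receptor. Per kb, Isg15 ranked 2 among the 34 genes over all libraries, but in AP alone it (90.7) was also below Ifi35 (120.5) and Tap1 (107.8). Isg15 had 63.7, 205, 131 and 293 normalized counts in VC and 76.9, 84.7, 41.9 and 70.8 in AP. VC.4 and VC.2 were highest and VC.3 was above every AP library, while VC.1 was lower than 3 of the AP libraries. Isg15 had a log2 fold change of -1.16 (SE 0.42, limma adjusted p = 0.0937); without VC.4 it was -0.84 (adjusted p = 0.191) and without VC.1 -1.57 (adjusted p = 0.0325), in a range of 0.0149 to 0.574 over the alternatives, and with total-count scaling it was -0.30. Usp18 ranged from 54.6 to 163 in VC and from 31.9 to 60.2 in AP, with a log2 fold change of -0.79 that was -0.46 without VC.4 and turned to 0.07 with total-count scaling. Herc6 was spread over 10.9 to 131 in VC and lay between 34.9 and 62.4 in AP, and its log2 fold change of 0.15 turned to -0.49 without VC.1.

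The OAS enzymes make the messenger that activates RNase L, and the OASL proteins are related to them. Oasl2, the most abundant of the 5 per kb, had 160.1, 177, 107 and 401 normalized counts in VC and 115, 109, 78.2 and 67.2 in AP. VC.4 was far above the rest and VC.3 lay among the AP libraries. The log2 fold change was -1.04 (SE 0.36, limma adjusted p = 0.0831) and -0.68 without VC.4; without VC.3 it was -1.31 with an adjusted p of 0.0444, in a range of 0.0207 to 0.669, and with total-count scaling it was -0.18. Oas1a, Oas3 and Oasl1 stood at -0.78, -0.53 and -0.97, and the first and second of these turned to 0.08 and 0.30 with total-count scaling; without VC.4 the 3 stood at -0.49, -0.04 and -0.63, and without VC.1 Oas3 stood at -0.92. Oas2 had 0 reads in VC.1, which allows up to 5.46 normalized counts, against 45.0 to 48.8 in the other vehicle libraries and 20.7 to 44.8 in AP. Its log2 fold change of 0.80 rested on VC.1 and was -0.60 without it. Oas1a shares 57.6% of its 50-base words with Oas1g, so its counts are uncertain.

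The IFIT proteins bind viral RNA and block its translation, and all 3 of the IFIT genes were lower in AP at an unadjusted p under 0.05, against 13.3% of all genes. Ifit2 did not pass that unadjusted limit without VC.4 or AP.4, and Ifit3 did not without VC.2, VC.4 or AP.3, without the intensity trend or with the length trend removed. With total-count scaling none of the 3 passed, and Ifit1, Ifit2 and Ifit3 stood at -0.33, -0.04 and -0.14. Ifit1 had 94.6, 108, 122 and 366 normalized counts in VC and 68.9, 85.7, 42.4 and 63.7 in AP. Every AP library was below every VC library, and VC.4 was about 3 times the next. Ifit1 had a log2 fold change of -1.20 (SE 0.41, limma adjusted p = 0.0775), and -0.76 without VC.4. Ifit3, the most abundant of the 3 per kb, had 149, 358, 175 and 636 in VC and 172, 127, 123 and 135 in AP. VC.4 and VC.2 were well above the AP libraries, but VC.1 was below AP.1, so the groups overlapped. AP over VC, this gave -1.0 (SE 0.39, limma adjusted p = 0.111), and -0.61 without VC.4, and 51.2% of its 50-base words also occur in Ifit3b, so its counts are uncertain. Ifit2 stood at -0.90, with 79.2 to 195 in VC and 46.5 to 87.8 in AP.

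Of the other antiviral effectors, all 9 analysed had a log2 fold change below 0, although with total-count scaling 5 of them (Rsad2, Cmpk2, Ifi44, Ifi35 and Trim30a) turned above it, the highest to 0.51. Bst2 (tetherin), which holds budding virus at the cell surface, was the most abundant of all 34 genes, with a mean of 728 normalized counts per kb. It had 649, 545, 535 and 1412 normalized counts in VC and 534, 429.7, 241 and 269.6 in AP. The groups did not overlap, though AP.1 came within 2 counts of VC.3. On the log2 scale the difference was -1.04 (SE 0.33, limma adjusted p = 0.0658) and -0.72 without VC.4; without AP.1 it was -1.24 with an adjusted p of 0.0368, in a range of 0.0249 to 0.649, and with total-count scaling it was -0.17.

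Ifi35, which binds the factor NMI, had 240.1, 235, 187 and 311 normalized counts in VC and 181, 155, 174 and 147 in AP. Here VC.4 stood less far from the others, and AP.1 was just below VC.3. The log2 fold change was -0.55 (SE 0.19, limma adjusted p = 0.0875), 0.32 with total-count scaling, and -0.26 once the trend with transcript length was removed. An antisense gene, Gm11626, shares 10.4% of the words of Ifi35, and reads of the pair cannot be told apart without strand. Rtp4, an inhibitor of viral genome replication, had 113, 91.6, 99.7 and 255 in VC and 71.1, 82.5, 58.8 and 61.5 in AP, and Xaf1, which promotes apoptosis, had 96.4, 90.1, 80.6 and 266 and 76.2, 63.1, 54.3 and 62.2. In both, AP.2 or AP.1 came within 10 counts of the lowest vehicle library and VC.4 was more than 2 times the next. Their log2 fold changes were -0.90 and -0.87 (limma adjusted p = 0.0928 and 0.131), and -0.57 and -0.48 without VC.4. With total-count scaling they were -0.04 and -0.01. Rtp4 shares 11.6% of its words with Gm45338, a gene that overlaps it on the same strand, so its counts are uncertain. Mx1, Rsad2, Cmpk2, Ifi44 and Trim30a had overlapping groups and log2 fold changes from -1.11 (Mx1) to -0.36 (Trim30a), the last of which turned to 0.04 without VC.4. Of these Rsad2, whose product viperin makes a chain-ending nucleotide, was nearly as high in AP.2 (103) as in VC.4 (111), and highest in VC.2 (124).

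**Figure D3:**
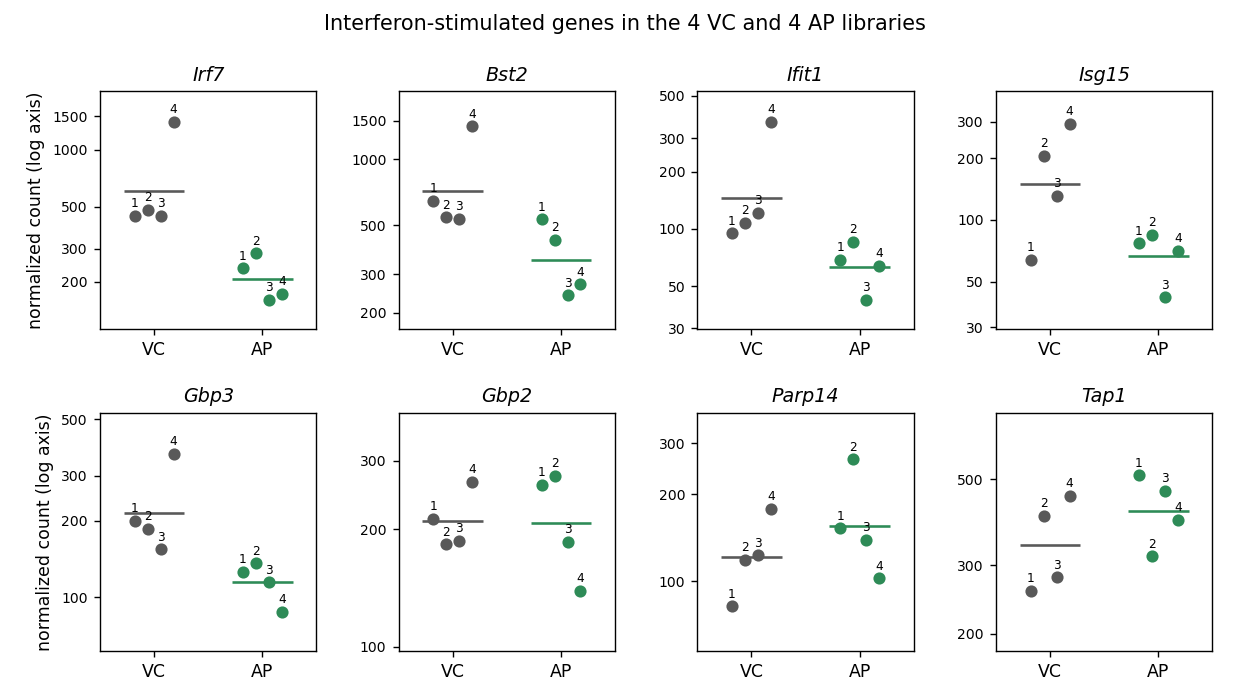
Normalized counts of 8 of the genes in each library on a log axis, with the library number above each point and the group mean of the log2 values as a line. Irf7, Bst2, Ifit1 and Gbp3 have no AP point at or above a VC point, and Isg15, Gbp2, Parp14 and Tap1 overlap; with total-count scaling, not drawn, all AP points move up relative to VC.

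Other genes lay near 0 or above it. PARP9 and DTX3L form a ligase that modifies histones and viral proteins, and PARP14 is a related ADP-ribosyltransferase that lies close by on chromosome 16. Parp9 had 133, 102, 132 and 225 normalized counts in VC and 148, 171, 139 and 113 in AP. VC.4 was highest and VC.2 lowest, and the AP libraries lay within the VC range. AP and VC differed by a log2 fold change of -0.01 (SE 0.26, limma adjusted p = 0.990), and 0.86 with total-count scaling. Dtx3l and Parp14 stood at 0.36 and 0.35, and at 0.68 and 0.54 without VC.4; the trend with transcript length removed, Parp14 stood at -0.01. Parp9 and Dtx3l overlap head to head on opposite strands. The pair shares 7.71% of the words of Parp9 and 6.89% of those of Dtx3l, so some of their reads cannot be told apart without strand.

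The guanylate-binding proteins, large GTPases that attack the membranes around intracellular microbes, were split. Gbp3 had 200.1, 186, 154 and 366 normalized counts in VC and 126, 136, 115 and 88.0 in AP. All AP libraries were below all VC libraries, with VC.4 the highest and AP.4 the lowest. The log2 fold change was -0.90 (SE 0.27, limma adjusted p = 0.0574), -0.64 without VC.4 and -0.03 with total-count scaling; without VC.3 the adjusted p was 0.0444, in a range of 0.0144 to 0.931. Its neighbour Gbp2 was the most abundant of the 3 per kb over all libraries, but in VC alone Gbp3 was slightly above it (84.5 against 84.2). Gbp2 had 213, 183, 187 and 264 in VC and 260.4, 274, 186 and 139 in AP. The AP libraries held both the highest and the lowest of these values. The log2 fold change was -0.01 (SE 0.24, limma adjusted p = 0.974) with either sign among the alternatives, from -0.15 to 0.85. Gbp7, next to Gbp3 on chromosome 3, stood at 0.26, with 53.2 to 129 in VC and 67.2 to 152 in AP, and shares 12.7% of its words with other genes. Tap1, a subunit of the transporter that carries peptides to MHC class I, had 258, 402, 279.9 and 454 in VC and 511, 317, 466 and 393 in AP. The highest value was in AP.1 and the 2 lowest were in VC. For Tap1 the log2 fold change was 0.29 (SE 0.22, limma adjusted p = 0.403), and 1.16 with total-count scaling.

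The 34 genes varied together from library to library. Over the 8 libraries the median Pearson r between 2 of them was 0.626, and 536 of 561 pairs were above 0. After each group's mean was taken off, the median was 0.678 and 552 pairs were above 0, so the shared variation lay within the groups too. All pairs share the same 8 libraries, of which VC.4 is the farthest out. Values for pairs of other genes, and for these pairs without VC.4, were not computed. Within groups, Zbp1, Oasl2, Rtp4 and Xaf1 followed the other genes most closely (median r 0.816, 0.815, 0.810 and 0.809), and Oas2, Irf9 and Tap1 least (0.351, 0.399 and 0.411). Irf7 stood at 0.792.

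The fold changes also went with transcript length. Spearman's rho between the length of the longest transcript and the log2 fold change was 0.686 over the 34 genes, and 0.245 over all genes tested; it is a correlation across genes, which are not independent. Of the 17 genes with transcripts of 3325 bases or less, 17 were below 0 (median -0.91), against 10 of the 17 longer ones (median -0.13). With the trend of all genes on length removed from each library, the median of the 34 was -0.65, 28 were below 0, and Irf7 remained called (adjusted p = 0.0303, range over the alternatives as above). Those of the 34 with all AP libraries below all VC libraries then numbered 4 rather than 7, and over all genes this count went from 1423 to 1291. The part of length in the difference between short and long members was not tested further.

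Promoters were read for the letters of the ISRE, GAAANNGAAA on either strand, since many of the 34 genes are known targets of ISGF3. The RefSeq promoter windows of GRCm38.p6 run from 250 bases before to 50 bases after each start, and 26 of the 34 genes matched one. The letters occurred in 14 of these 26 (53.8%), against 1079 of 27025 genes (3.99%) and 3.44% of all windows of this length. The median log2 fold change was -0.62 in the 14 genes with the ISRE letters, 12 of them below 0, and -0.66 in the 12 without, 9 of them below 0. Irf7 was among those without a match in its window. Each sequence listed here runs 5′ to 3′ on the strand of its gene, with the ISRE letters or their reverse complement in capitals. These sequences show the same letters at genes with a log2 fold change of -0.895 or less (Isg15, Ifit1, Ifit3, Bst2 and Gbp3) and at genes near 0 or above (Gbp2 and Gbp7). They lie at chr4:156200860-156200911 (minus strand), chr19:34640770-34640828 (plus), chr19:34583358-34583431 (plus), chr8:71537572-71537617 (minus), chr3:142559984-142560029 (plus), chr3:142620589-142620628 (plus) and chr3:142530268-142530307 (plus) of GRCm38.p6. A match is a description of the letters, not of binding.
Isg15: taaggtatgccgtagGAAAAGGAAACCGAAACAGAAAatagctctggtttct
Ifit1: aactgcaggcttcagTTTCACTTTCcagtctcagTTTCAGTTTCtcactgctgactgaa
Ifit3: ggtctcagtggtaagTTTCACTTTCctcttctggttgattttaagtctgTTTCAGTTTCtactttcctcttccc
Bst2: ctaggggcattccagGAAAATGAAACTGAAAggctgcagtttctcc
Gbp3: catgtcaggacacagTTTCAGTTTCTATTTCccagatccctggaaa
Gbp2: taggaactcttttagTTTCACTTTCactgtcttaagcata
Gbp7: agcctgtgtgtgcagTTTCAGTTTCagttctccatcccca

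Upstream of the 34 genes, the receptor chain IFNAR1 was higher. Of 15 interferon genes listed, Ifng alone was analysed, with 12.7, 0, 8.19 and 3.75 normalized counts in VC and 0, 1.62, 0 and 4.29 in AP, and Ifnb1 and Ifnk were not analysed here. Ifnar1 had 140.1, 130.0, 158 and 197 in VC and 255, 329, 280.0 and 247 in AP. All AP libraries were above all VC libraries, and it rose by 0.83 (SE 0.19, limma adjusted p = 0.0243); its adjusted p rose past 0.05 when VC.1 (0.0513), AP.2 (0.0746), AP.3 (0.0829) or AP.4 (0.0565) was left out and without the intensity trend (0.0527), in a range of 5.69e-04 to 0.0829. The other receptor chain, Ifnar2, stood at 0.00, and of the 6 receptor genes 1 was called higher and 0 lower. Of 8 JAK-STAT genes, Jak1 was called higher, with 558, 554, 598 and 844 in VC and 1024, 1143, 1121 and 1262 in AP, and it rose by 0.85 on the log2 scale (limma adjusted p = 0.0155, SE 0.17); without AP.3 or AP.4 its adjusted p was 0.0509 and 0.0520, and without the intensity trend 0.0509. Irf1, which interferon also induces, stood at 0.18. None of the 14 genes that sense nucleic acid and start interferon production was called by limma, with 1 higher and 1 lower at an unadjusted p under 0.05.

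Among 10 brakes on the pathway, the JAK inhibitor Socs3 had 104, 93.1, 302 and 95.6 normalized counts in VC and 646, 372, 523 and 365 in AP. It rose by 1.83 (SE 0.36, limma adjusted p = 0.0152), with an adjusted p of 0.0507 without AP.3 and 0.0509 without the intensity trend, and 0 of the list were called lower. Of the 10 brakes, 7 were below 0, with a median of -0.08. At an unadjusted p under 0.05 in limma, 2 of the brakes were lower and 1 was higher. A wider list of interferon-stimulated genes held 65 that were tested. Of these, 50 were below 0, against 46.5% of all genes, with a median of -0.34, and 1 was called in each direction. The mean log2 level of this list was 6.345, 6.655, 6.435 and 7.43 in VC and 6.66, 6.59, 6.19 and 6.14 in AP. Only VC.4 stood above all AP libraries, and VC.1, VC.2 and VC.3 lay among the AP values. The list was not recomputed without VC.4, so the part of that library in its median was not tested. Trim12c fell by 1.5 (SE 0.26, adjusted p = 0.0103), from 371, 205, 191 and 311 in VC to 117, 79.3, 75.2 and 98.0 in AP, and was called in all 23 alternatives, with a log2 fold change of -0.64 under total-count scaling. Helz2 rose by 1.43 (SE 0.40, adjusted p = 0.0449), a call that held in 11 of the 23 and was lost without VC.1, VC.4 or any 1 AP library (adjusted p 0.0544 to 0.122). Cxcl10, Ifi27l2a and Eif2ak2, often read as interferon targets, stood at -1.11, -0.89 and 0.27, none of them called by limma. In the MHC class I group of 15, Nlrc5, the activator of class I genes, rose by 1.31 and the proteasome activator Psme2 fell by 0.64 (adjusted p = 0.0308 and 0.0452); Nlrc5 lost its call without VC.1, VC.4, AP.3 or AP.4 (0.0605 to 0.102), and Psme2 lost it without VC.2, VC.3, VC.4, AP.2, AP.3 or AP.4 (0.0549 to 0.142) and stood at 0.23 with total-count scaling. With the length trend removed, Psme2 stood at -0.33 (adjusted p = 0.292), Nlrc5 at 0.95 (0.0848) and Helz2 at 0.96 (0.120), none of them called. Without the intensity trend all 3 lost their calls too (0.101, 0.0707 and 0.0859), and Psme2 also lost its call with TMM scaling (0.0528) and with total counts without mitochondrial genes (0.0590).

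Of 10 macrophage and monocyte markers, 0 were called, and 6 were lower at an unadjusted p under 0.05 in limma, against 13.3% of all genes. The log2 fold change was below 0 for 9 of these markers, against 46.5% of all genes, with a median of -0.82. Their mean log2 level was 9.19, 8.61, 8.40 and 9.91 in the VC libraries and 8.87, 8.36, 8.00 and 7.78 in the AP libraries. As with the interferon-stimulated genes, VC.4 was the highest library and AP.3 and AP.4 the lowest, but VC.1 was second here. Summed, they reached 9868, 5618, 5157 and 14237 in VC and 7681, 4908, 3528 and 3686 in AP, and C1qa, the most abundant per kb, had 2196, 1237, 965 and 2981 and 1739.9, 817, 530.1 and 662. Of the leukocyte markers 1 of 8 was called higher (Lcp1, 1.17) and 0 lower, 6 were below 0 and the median was -0.34, with VC.4 again the highest library, at 9.01 on the mean log2 scale.

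Markers of suprabasal keratinocytes went the other way, with 9 of 11 called higher in AP (the smallest p in Krt10, Dsc1, Krtdap, Dsg1a, Krt1 and Ivl) and a median of 3.0. Their mean log2 level was 7.66, 8.22, 8.10 and 7.38 in VC and 10.29, 9.25, 11.72 and 11.73 in AP, lowest in VC.4 and highest in AP.3 and AP.4, the reverse of the order of the interferon-stimulated genes at both ends; Krt10 was the most abundant per kb. Of 8 endothelial markers 2 were called higher (Pecam1 and Cdh5; median 1.41), with AP.2 the highest library. Of the remaining lists, counted as called higher and lower out of the genes tested, basal keratinocytes had 4 and 0 of 8 (Itga6, Dst, Col17a1 and Itgb4; median 1.07), fibroblasts 0 and 0 of 8 (0.49), adipocytes 0 and 0 of 8 (0.26), skeletal muscle 0 and 0 of 8 (-1.65), T cells and NK cells 1 and 0 of 7 (Trdc; 1.61), neutrophils 1 and 0 of 3 (S100a9; 1.59), Langerhans and dendritic cells 1 and 0 of 9 (Cd207; -0.26), plasmacytoid dendritic cells 0 and 0 of 5 (-0.46), red blood cells 1 and 0 of 5 (Hbb-bs; 0.94) and mitochondrially encoded transcripts 0 and 10 of 12 (the smallest p in mt-Co2, mt-Atp6, mt-Nd4l, mt-Nd3, mt-Co3 and mt-Nd6; -3.38). The part of any of these cells in the levels of the 34 genes was not tested.

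**Figure D4:**
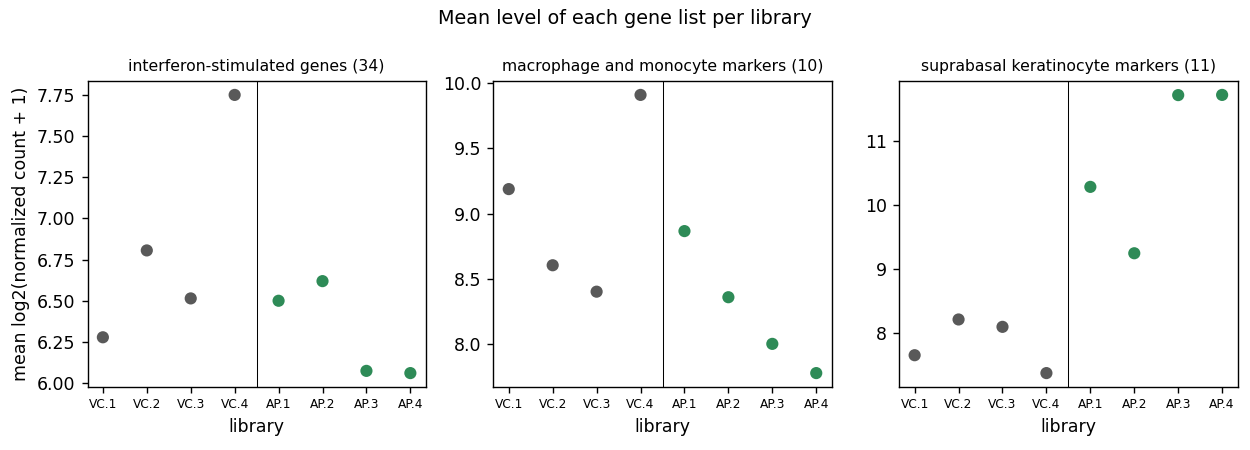
Mean log2(normalized count + 1) of the 34 interferon-stimulated genes, 10 macrophage and monocyte markers and 11 suprabasal keratinocyte markers in each library; each panel has its own vertical axis. VC.4 is the highest library of the first 2 panels, at 7.75 and 9.91, and the lowest of the third, at 7.38; with total-count scaling, not drawn, the AP levels move up relative to VC.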

How the data were processed

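RNA from 4 AP and 4 VC libraries was analysed. The deposited signal values are read counts per gene that the authors scaled with DESeq2, using 1 factor for each library; the labels name STAR, HTSeq, DESeq2 and mm10, without versions, and the methods of the paper name feature counts. Reads were recovered by dividing each column by its smallest step, and 100.0% of 150160 values lay within 0.1 of a whole read. Reads on genes ran from 6454563 to 11190113 per library, and 3 reads equal 1.49 to 5.63 normalized counts. The 15964 genes that reached 3 normalized counts in 4 or more of the 8 libraries were compared by limma 3.58.1 with intensity trend in R 4.3.3 on log2(value + 1), with Benjamini-Hochberg adjustment over all of them; the procedure was tested on simulated data. On recovered reads, the test of DESeq2 1.42.0 called 1677 genes higher and 1362 lower, and that of edgeR 4.0.16 called 1003 and 712. Other alternatives were voom with and without sample weights, no intensity trend, TMM, upper-quartile and total-count scaling with and without mitochondrial genes, pseudocounts of 0.5 and 5, other filters, removal of the trend with transcript length, a draw of the reads outside the mitochondrial genome down to 3080758 per library, and each library left out. Transcript lengths and overlaps came from GENCODE M21 and promoters from RefSeq GRCm38.p6. Values per kb are normalized counts divided by the length of the longest transcript, and genes were ranked on their mean over all 8 libraries. The members and lists were chosen with earlier results of these data known. The rule for named genes was: every member, with values in each library for those called, those without overlap between the groups and the most abundant per kb of each role; in other lists the genes called, at most the 6 with the smallest p, and among others Ifnb1, Ifng, Ifnk, Ifnar1, Ifnar2, Eif2ak2, Irf1, Cxcl10 and Ifi27l2a. Values of Stat2, Irf9, Dhx58, Usp18, Herc6, Oas2, Ifit2, Rsad2 and Gbp7, and the marker C1qa, were chosen after their values were seen. The marker lists were leukocytes, macrophages and monocytes, neutrophils, Langerhans and dendritic cells, plasmacytoid dendritic cells, T cells and NK cells, endothelial cells, fibroblasts, suprabasal and basal keratinocytes, skeletal muscle, adipocytes, red blood cells and mitochondrially encoded transcripts.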

Additional observations from a re-analysis of the deposited data

Results flagged for a closer look

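Dixon's ratio was checked within each group of 4 libraries for each of the 34 genes, their mean level and the mitochondrial share. In 5 of these 72 checks, 1 library lay far from the other 3. About 1 in 20 independent checks would pass this limit by chance, but these checks share the same 8 libraries and are not independent. In VC.4, Irf7 reached 1408.1 normalized counts, Xaf1 266.3, Cmpk2 133.1 and Dtx3l 151.9, each the highest of its group. In VC.1, Oas2 had 0, the lowest of its group.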

How the results depend on the processing

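The fold changes, counts and medians of the 34 genes, and 7 called genes of the pathway, were recomputed under 23 alternatives, and the marker lists, the wider list, correlations and promoter split were not; of 782 values of the 34 genes 710 kept their direction and side of the threshold, 42 reversed, 26 passed it newly and 4 no longer passed. Irf7 kept its direction throughout and its call in 19, and lost it without the intensity trend (adjusted p = 0.0694), with total counts (0.111), without AP.3 (0.0785) and without AP.4 (0.0689). Genes called higher went from 0 to 7 with total counts, by either threshold. Genes called lower went from 1 to 2 with edgeR, 12 with DESeq2, 5 with sample weights, 2 with upper-quartile scaling, 0 without the trend, 0 with total counts, and 0 to 3 with a library left out. Over all genes the 639 became 712, 1362, 934, 892, 216 and 70 in the first 6 of these. Genes past the study's thresholds went from 3 to 8 with edgeR, 11 with DESeq2, 9 with sample weights, 1 without the trend, 0 with total counts, 1 with the length trend removed, and 1 to 5 with a library left out; over all genes the 850 became 928, 1173, 1088, 719, 35 and 704 in the first 6 of these. Genes with all AP libraries below all VC libraries went from 7 to 4 with the length trend removed, where all genes went from 1423 to 1291. Genes with separate groups in either direction went to 7 to 12 with a library left out. Over all genes, these fits had 1569 to 2121 with AP below and 1719 to 2401 with AP above. None of the 7 remained with total counts, and 4 others (Ifih1, Parp14, Gbp2 and Tap1) had all AP libraries above. Of all 15964 genes, 7902 were then above and 66 below. With total counts the median reversed to 0.11, and Ddx58 (0.73), Stat2 (0.46), Irf9 (0.49), Usp18 (0.0686), Oas1a (0.0818), Oas3 (0.30), Rsad2 (0.14), Cmpk2 (0.43), Ifi44 (0.0593), Ifi35 (0.32), Trim30a (0.51), Parp9 (0.86), Gbp2 (0.85) and Psme2 (0.23) reversed. Herc6 reversed with edgeR (-0.31), DESeq2 (-0.30), sample weights (-0.10), the length trend removed (-0.0166) and reads drawn down (-0.14), Oas2 with edgeR (-0.15) and DESeq2 (-0.13), and Parp14 with the length trend removed (-0.00633). Parp9 reversed with voom (0.0191), sample weights (0.0587), TMM (0.0198) and total counts without mitochondrial genes (0.0342), and Gbp2 with edgeR (0.0156), DESeq2 (0.0244), TMM (0.0116), total counts without mitochondrial genes (0.0260) and the length trend removed (0.0963). With a library left out the ranges crossed 0 for Ddx58 (-0.34 to 0.15), Herc6 (-0.49 to 0.67), Oas2 (-0.60 to 1.28), Trim30a (-0.54 to 0.0414), Parp9 (-0.16 to 0.21), Gbp2 (-0.15 to 0.18) and Gbp7 (-0.00162 to 0.49). Over all genes, 1011 were called higher and 639 lower, against 8657 and 70 with total counts, 890 and 892 with upper-quartile scaling, 715 and 723 with voom and 858 and 934 with sample weights. For these the cause was not tested. No paired analysis was possible because the replicate numbers of the labels are not shared between the groups and the columns are not tied to them. The p-values measure the spread between libraries, and 3 reads correspond to 1.49 to 5.63 normalized counts, so low values such as those of Ifng are uncertain. With 4 libraries per group, genes not called may still differ.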
